A study of Mus musculus with 13 samples.

Results

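The members described here are small insertions and deletions (INDELs) that lie outside annotated repeats in whole-genome DNA of N-Myc leukaemias and 1 control of the mouse. A member is a call on chromosomes 1 to 19 with no entry in the deposited repeat and segmental duplication columns and an annotation other than exonic. It has a read depth (DP) of at least 10, a Phred-scaled quality (QUAL) of at least 100 and at least 4 reads with the alternative allele (DV). The rule does not use any difference between libraries. It keeps 2571 distinct INDELs of the 461185 distinct INDELs in the 7 tables, in 13023 calls. The tables hold 25967 calls outside repeats before the depth and quality limits. There were 342 calls with a QUAL from 90 to under 100 that met the other limits, and 345 members from 100 to under 110.

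DNA came from GFP+ bone marrow cells of C57BL/6 mice of 8 to 10 weeks, from 7 populations, 1 library each. The first protocol text covers 4 leukaemias with 2000000 cells each: B-ALL, sorted as B220+, T-ALL, sorted as CD3+, AML, sorted as Mac1+Gr1+, and AUL, sorted as B220-CD3-Mac1-Gr1-. The M-MPAL fraction (Mac1/Gr1+ B220- CD3/4/8-) and the T-MPAL fraction (CD3/4/8+ Mac1/Gr1- B220-) of a mixed phenotype leukaemia, and the empty control (GFP+ with no N-Myc named), were made from 1000000 cells each and share a second protocol text. N-Myc was delivered by a retrovirus. The labels name no matched normal DNA, so inherited and acquired INDELs cannot be told apart, and they do not say which libraries came from the same mouse. Surface markers used in the sort cannot be checked in DNA. Since each group is a single library, differences between groups could not be set against a spread between replicates, and none was tested. Intervals are 95% and exact (Poisson for counts, Clopper-Pearson for shares) and cover counting error only.

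INDELs arise in several ways. A polymerase that slips in a run of repeated bases leaves a gain or loss of a repeat unit, and mismatch repair removes most such loops. Breaks of both strands that are rejoined by end joining leave deletions, and a few bases shared by both ends (microhomology) often mark the junction. An INDEL that is present in all mice of a strain differs from the reference genome by inheritance or by an error in the reference, and it is then read in every library as homozygous.

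The following alleles show the main kinds of member, with the build mm10, the + strand and coordinates that cover the bases printed. Capitals mark the deleted bases in the reference, or the inserted bases where an insertion is printed as the alternative allele. The first is common to all 7 libraries, the next 5 are private to 1 library, and the last 5 were listed in exactly 2 libraries.
Lig1, 1-base deletion in all 7 libraries, chr7:13305924-13305929: gCcccc
AUL, intergenic 2-base deletion, chr10:67523975-67523977: aCT
T-ALL, 17-base deletion in an intron of Klf13, chr7:63908344-63908363: gGGTAACACTTAGAAGCTgg
AML, 45-base deletion, chr3:113873384-113873431: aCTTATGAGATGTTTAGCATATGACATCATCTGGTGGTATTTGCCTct
T-MPAL, 42-base deletion, chr3:3939390-3939433: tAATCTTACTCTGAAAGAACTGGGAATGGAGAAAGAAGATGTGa
AUL, 17-base deletion of 1 tandem copy, chr10:21526762-21526801: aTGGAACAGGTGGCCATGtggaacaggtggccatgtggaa
M-MPAL and T-MPAL, 7-base deletion in an intron of Pcdh9, chr14:93080623-93080632: aACTAATTac
M-MPAL and T-MPAL, 8-base deletion in an intron of Ptprk, chr10:28474188-28474197: aTAAGACACt
M-MPAL and T-MPAL, 12-base deletion, chr5:6293634-6293648: gGAATTTAATTGTga
M-MPAL and T-MPAL, 13-base deletion, chr3:29692393-29692410: aGGATTTGGACAGTggat
B-ALL and AML, 4-base deletion in an intron of Fam21, chr6:116251865-116251874: aAATCaatca
In the Klf13, Pcdh9 and Ptprk alleles, in the 45-base and 42-base deletions and in the 12-base and 13-base deletions of the MPAL fractions, the lower-case bases after the deletion repeat the first deleted bases. In the Fam21 allele and in the 17-base AUL allele a full copy of the deleted bases follows.

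Each library held between 1686 members (empty control) and 1961 members (T-ALL). B-ALL had 1862, AML 1921, AUL 1927, M-MPAL 1849 and T-MPAL 1817. The median depth of the members was 24 to 26 reads. The members of the libraries resembled each other in makeup. Insertions made up 43.2% (T-MPAL) to 45.2% (AML) of them, changes of 1 base 76.0% (T-ALL) to 78.1% (control), and changes of 10 or more bases 3.68% (M-MPAL) to 4.54% (T-ALL). Between 47.1% and 49.5% were intergenic and 41.2% to 43.3% intronic, and 80.1% to 83.5% were in dbSNP, a catalogue of known variants. Between 82.0% and 84.5% were called homozygous.

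Most members were common to the series. Of the 2571 distinct members, 1748 (68.0%) were listed in all 7 INDEL tables, counting a listing of any depth or quality, and 321 (12.5%) in only 1. There were 141 in 2 tables, 71 in 3, 56 in 4, 67 in 5 and 167 in 6. The share of 1-base changes was 82.3% (80.4 to 84.0) in the members of all 7 tables and 19% (14.9 to 23.7) in the private ones. The share in dbSNP was 87.3% against 4.67%, and the share called homozygous was 90.2% against 8.41%. Changes of 10 or more bases made up 3.26% of the members of all 7 tables and 12.1% of the private ones.

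The members of all 7 tables were mostly single bases read on all reads. They comprised 875 deletions and 563 insertions of 1 base, and 853 and 536 of these were called homozygous. The deleted base was C or G in 589 of the 875 deletions (67.3%) and the inserted base in 288 of the 563 insertions (51.2%), against 17 of 61 private 1-base changes (27.9%). Chromosome 1 held 293 of the 1748 (16.8%) and chromosome 5 held 202 (11.6%), while chromosome 11 held 37 (2.12%). In windows of 1000000 bases the highest number was 79, on chromosome 1 between 88211688 and 88983991, where only 11 were called homozygous. The next highest was 24, on chromosome 8 between 70354248 and 70780501, beside Jund, an AP-1 transcription factor, and Ifi30, a thiol reductase of lysosomes. All 24 of these were homozygous, 23 were 1-base deletions and 23 were in dbSNP.

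The annotation placed 11 members at splice sites, and all 11 were 1-base deletions listed in all 7 libraries, called homozygous in each and read on every read (DV/DP of 1). They lay in Nadk2, Trerf1, Tmem134, Otop1, Sftpb, 6330408A02Rik, Lig1, 1600014C10Rik, Fam181b, Kndc1 and Ifi30. In each gene the annotation gives the deleted base both as position 1 after one exon and as position 1 before the next, so the annotated intron is 1 base long. For Lig1, which joins DNA fragments during replication, this base is the C at the start of the run printed above, between exons 22 and 23, and depth there was 22 to 36 reads. For Sftpb, a surfactant protein, depth was 22 to 51 reads. Of the 11, 10 were in dbSNP, and Nadk2, a mitochondrial NAD kinase, was the exception. No private member and no member of a pair of libraries was annotated at a splice site.

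Private members differed in number between libraries. A private member was listed in 1 library and, with its position and both alleles, in no other table at any depth or quality. T-ALL had 80 (63.4 to 99.6) and AUL 67 (51.9 to 85.1), which was 2.96 times (1.89 to 4.77) and 2.48 times (1.57 to 4.04) the 27 (17.8 to 39.3) of the empty control. M-MPAL had 54 (40.6 to 70.5) and a ratio of 2.00 (1.24 to 3.30). T-MPAL had 41 (29.4 to 55.6), and its ratio of 1.52 had an interval from 0.912 to 2.57. With at least 8 alternative reads the T-MPAL ratio was 2.54 (1.30 to 5.25) and the T-ALL ratio 5 (2.73 to 9.89), and with QUAL at least 200 they were 2.83 (1.07 to 8.78) and 4.83 (1.97 to 14.2). AML had 30 and B-ALL 22, with ratios of 1.11 (0.638 to 1.94) and 0.815 (0.442 to 1.49). The intervals of T-MPAL, AML and B-ALL hold 1. Without members in tandem runs, which hold 32 of the 54 of M-MPAL, its ratio was 1.29 (0.656 to 2.60), and with QUAL at least 200 it was 2.67 (0.991 to 8.32). B-ALL and AML shared many members with each other, as did both MPAL fractions, and a shared member is not private. With that partner not asked, B-ALL had a ratio of 1.74 (1.06 to 2.91), AML 2.07 (1.29 to 3.42) and T-MPAL 2.63 (1.67 to 4.26). Without members that had any other INDEL within 10 bases in another library, B-ALL had 3 against 18 in the control, a ratio of 0.167 (0.0315 to 0.571). Asking only the libraries of the second protocol text, M-MPAL had 71 private members, T-MPAL 60 and the control 46, with ratios of 1.54 (1.05 to 2.29) and 1.30 (0.874 to 1.96). The first protocol text covers no control, so that protocol and group cannot be told apart for its 4 leukaemias.

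**Figure D1:**
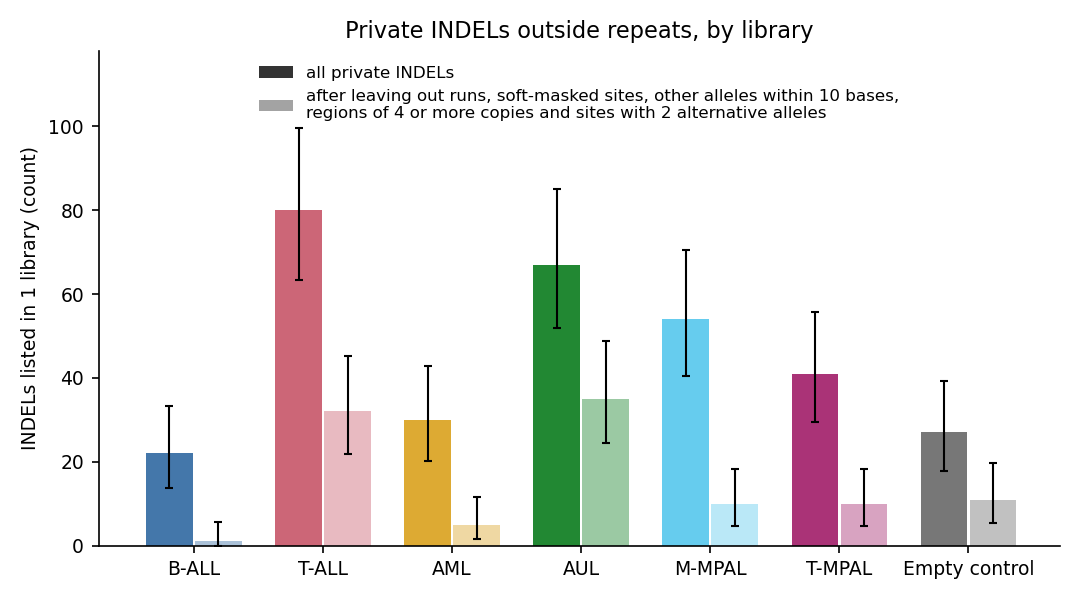
Number of private INDELs outside repeats (y axis, count) in each of the 7 libraries (x axis), with exact 95% Poisson intervals as error bars, all private members in full colour and the remaining ones after 5 kinds of site were left out in pale colour. T-ALL and AUL stand highest in both, at 80 and 67 in all and 32 and 35 in the remaining ones.

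Many private members lay in short repeats, beside other INDELs or in regions of many copies. Of the 321, 131 lay in a tandem run (at least 5 of the same base or at least 3 units of the changed bases) and 79 had soft-masked letters in the deposited reference allele. In 119, another library listed a different INDEL within 10 bases, and 20 had a genotype with 2 alternative alleles. In 24, a copy number table gave at least 4 copies. Of these 24, 17 lay in 1 region of chromosome 1 (88212001 to 88309000) at Mroh2a and Hjurp, a chaperone of the centromere histone, which was called at 10 to 13 copies. Depth at these 17 was 36 to 170 reads (median 74), 6 libraries had at least 1 of them, and the empty control had 0. Insertions of GTGG were listed there at 3 starts that are 2 bases apart, and the 3 resulting alleles differ in sequence. T-ALL had one at 88262229 (44 of 78 reads), B-ALL and AML at 88262231 (43 of 66 and 51 of 76 reads) and T-MPAL at 88262233 (29 of 51 reads).

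Leaving out all 5 kinds of site, a choice made after seeing the values, kept 104 private members. AUL held 35 (24.4 to 48.7), T-ALL 32 (21.9 to 45.2) and the empty control 11 (5.49 to 19.7). M-MPAL and T-MPAL held 10 each, AML 5 and B-ALL 1. The pale bars in the plot of private counts give these values. T-ALL and AUL kept the highest numbers, while the intervals of M-MPAL, T-MPAL and AML overlapped that of the control. The count of B-ALL, 1 (0.0253 to 5.57), lay below the 11 of the control, and their intervals met only from 5.49 to 5.57. Overlap of separate intervals does not show equal counts, and no ratio was worked out for this set.

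Private members of AUL were more often short deletions than those of T-ALL, with intervals that did not overlap, while the interval of the control overlapped both. In AUL, 35 of 67 private members (52.2%, 39.7 to 64.6) were deletions of 1 or 2 bases, against 18 of 80 in T-ALL (22.5%, 13.9 to 33.2) and 10 of 27 in the control (37.0%, 19.4 to 57.6). M-MPAL had 23 of 54 (42.6%), T-MPAL 9 of 41, B-ALL 5 of 22 and AML 5 of 30. Insertions made up 35.8% (24.5 to 48.5) of the private members of AUL and 56.3% (44.7 to 67.3) of those of T-ALL. They made up 66.7% in AML, 63.6% in B-ALL, 56.1% in T-MPAL, 50% in M-MPAL and 40.7% in the control. In T-MPAL 8 of 41 changed 10 or more bases (19.5%, 8.82 to 34.9), against 2 of 27 in the control (7.41%, 0.910 to 24.3).

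**Figure D2:**
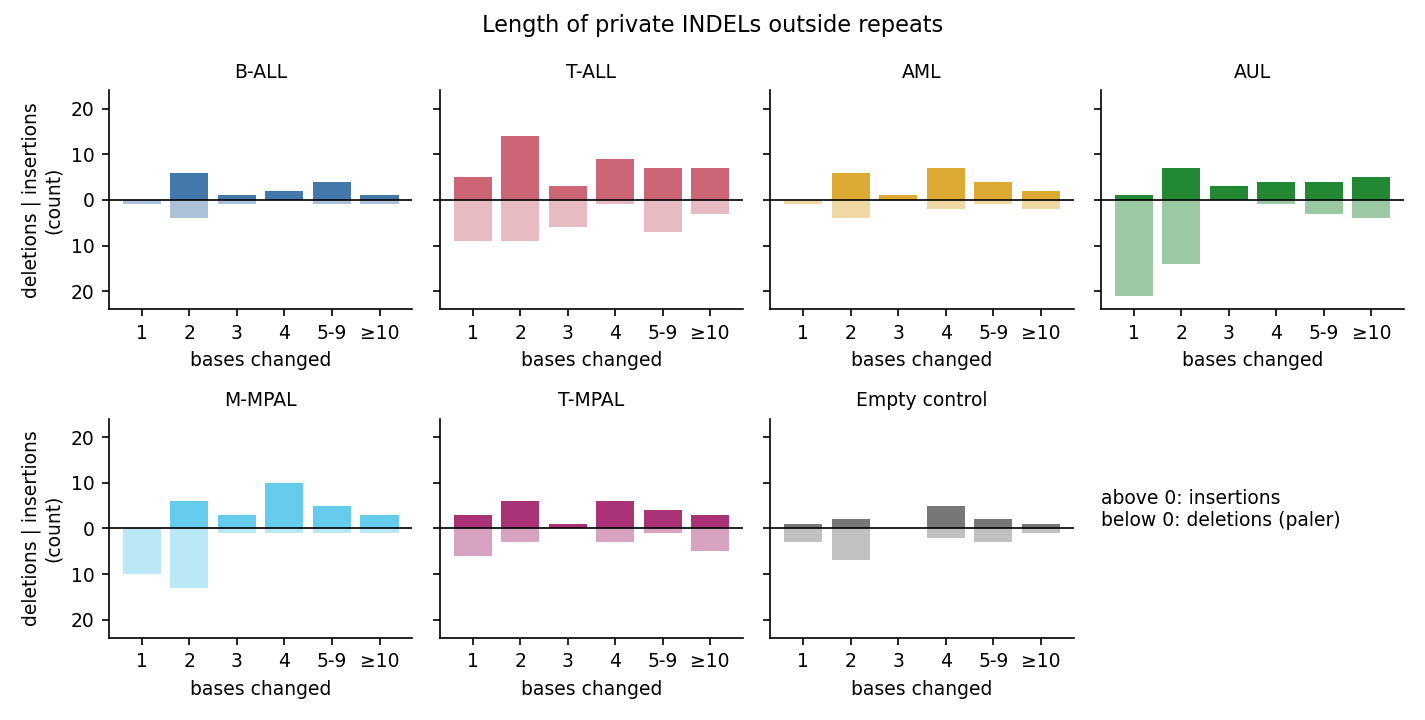
Private INDELs outside repeats by the number of bases changed (x axis, 1 to 10 or more), with the count of insertions above 0 and of deletions below 0 (y axis), 1 panel per library. AUL shows 21 deletions of 1 base and 14 of 2 bases against 1 insertion of 1 base, while T-ALL shows 14 insertions of 2 bases and 9 deletions of 1 base.

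Among the 35 AUL members that remained after the 5 kinds of site were left out, 25 were deletions of 1 or 2 bases (71.4%, 53.7 to 85.4). There were 17 of 1 base and 8 of 2 bases, while the control had 1 deletion of 2 bases in this set and the other 5 libraries 0. T-ALL had 9 of 32 deletions of 1 or 2 bases in this set, M-MPAL 8 of 10, the control 3 of 11, T-MPAL 2 of 10, AML 1 of 5 and B-ALL 0 of 1. The median DV/DP of the 35 was 0.462 and 32 of them lay between 0.3 and 0.7. None of the 35 had a private SNV of AUL within 1000 bases, against 14 of the 32 of T-ALL.
Among all private members, deletions of 2 bases were 14 of 67 in AUL, 13 of 54 in M-MPAL and 7 of 27 in the control. They were 9 of 80 in T-ALL, 4 of 22 in B-ALL, 4 of 30 in AML and 3 of 41 in T-MPAL. AUL thus stood apart in this kind of change only in the remaining set. The 2-base deletions of AUL outside runs include these, shown because AUL held 8 in that set.
Glp2r intron, chr11:67720998-67721000, 9 of 25 reads: cTT
Pitpnc1 intron, chr11:107224133-107224135, 7 of 24 reads: cAG
Rbm15 intron, chr3:107327334-107327337, 16 of 30 reads: cATa
Spsb1 intron, chr4:149911214-149911216, 5 of 14 reads: aTT
intergenic, chr10:67523975-67523977, 12 of 24 reads: aCT
intergenic, chr10:124894211-124894213, 13 of 21 reads: cCT
intergenic, chr14:112807232-112807235, 12 of 29 reads: tTGt
Glp2r is a peptide hormone receptor and Rbm15 an RNA-binding protein of the m6A methylation complex. The alternative reads of the 7 made up 29.2% to 61.9% of the depth. Single-base deletions of the same set lay in introns of Syne3, a nuclear envelope protein (11 of 30 reads), Itgav, an integrin subunit (13 of 23 reads), and Grik1, a glutamate receptor subunit (7 of 11 reads).

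AUL also had by far the most private SNVs under the same rule, so that its INDELs made up a small share of its private variants. They were 67 against 2283 SNVs, a share of 2.85% (2.22 to 3.61). The share was 7.61% in M-MPAL (656 SNVs), 10.5% in T-ALL (683 SNVs) and 11.5% in T-MPAL (316 SNVs). It was 18.2% in B-ALL (99 SNVs), 23.8% in AML (96 SNVs) and 21.8% (14.9 to 30.1) in the control (97 SNVs). The interval of AUL lay below that of each other library. This did not hold with the 5 kinds of site left out of the INDELs, while the SNVs were kept unfiltered. The share of INDELs was then 1.51% (1.05 to 2.09) in AUL and 1.5% (0.722 to 2.74) in M-MPAL. It was 1% (0.0253 to 5.45) in B-ALL and 10.2% (5.20 to 17.5) in the control.

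In T-ALL 19 of 80 private members had at least 1 private SNV of that library within 1000 bases, and 14 had 3 or more. T-MPAL had 7 of 41 and the control 2 of 27, while B-ALL (of 22), AML (of 30), AUL (of 67) and M-MPAL (of 54) had 1 each. The median depth of the 19 was 51 reads, against 23 for the other private members of T-ALL. Outside the region of chromosome 1 named above, 6 of them lay in untranslated regions, at 39 to 57 reads with 2 to 5 SNVs each. This group was described after its values were seen, and the part of depth in it was not tested.
The alleles in untranslated regions are these, with inserted bases shown in the alternative allele.
Canx 3′ UTR, insertion, 13 of 39 reads, chr11:50296182-50296183: tTCt
Pfn1 5′ UTR, deletion, 16 of 57 reads, chr11:70654529-70654530: tC
P4hb 3′ UTR, insertion, 18 of 51 reads, chr11:120561008-120561012: cAAAaaaa
P4hb 3′ UTR, deletion, 22 of 57 reads, chr11:120561132-120561133: aG
Lmna 5′ UTR, deletion, 11 of 44 reads, chr3:88503185-88503186: cA
Calr 3′ UTR, insertion, 18 of 56 reads, chr8:84842539-84842545: gAAaaaaaa
Canx and Calr are chaperones of the endoplasmic reticulum, P4hb is a protein disulfide isomerase, Pfn1 an actin-binding protein and Lmna a nuclear lamin. An insertion of 11 bases in an intron of Luc7l, a splicing factor, had 18 of 57 reads and 16 private SNVs within 1000 bases. The alternative reads of these 7 members were 25% to 38.6% of the depth. Leaving out members within 1000 bases of another private variant of the library lowered the T-ALL ratio to the control from 2.96 to 2.08.

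The alternative read share of the private members centred below or near 0.5. The median DV/DP was 0.533 in T-MPAL, 0.483 in M-MPAL, 0.481 in AUL, 0.474 in AML, 0.421 in T-ALL, 0.418 in B-ALL and 0.385 in the control. The middle ranges overlapped: that of the control ran from 0.304 to 0.538 and that of T-MPAL from 0.400 to 0.667. Calls with 2 alternative alleles, where DV adds both, were left out of these values.

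**Figure D3:**
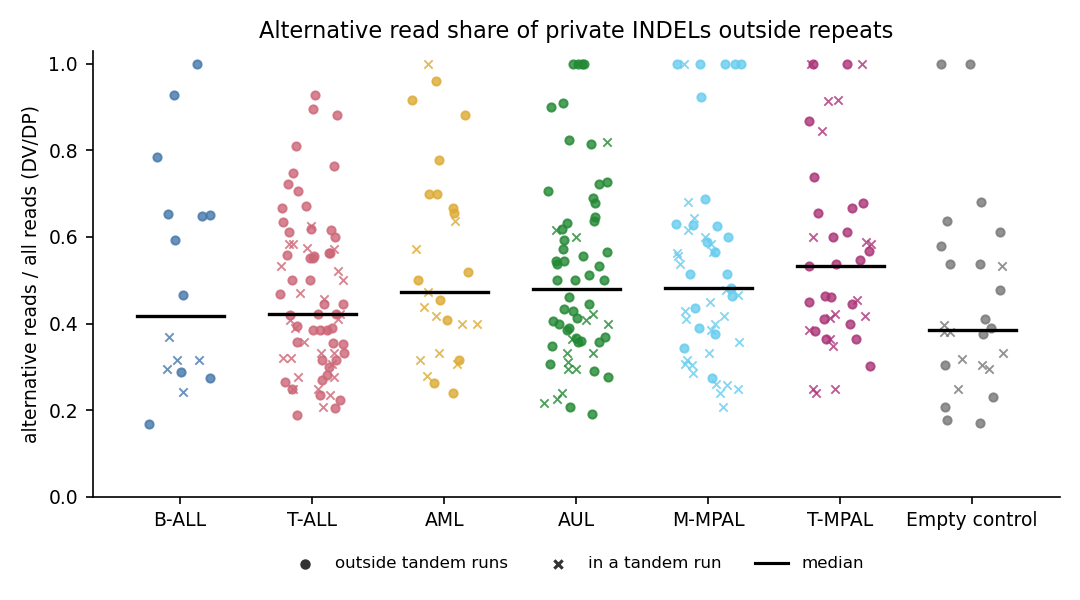
Alternative reads as a part of all reads (y axis, DV/DP) for each private INDEL in each library (x axis), as circles outside tandem runs and crosses in runs, with the median as a line. The medians run from 0.385 in the control to 0.533 in T-MPAL and the points of all libraries overlap.

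Some private members were called homozygous, and 15 of these 27 lay within 10 bases of an INDEL listed in all 7 libraries. The numbers were 7 in M-MPAL, 6 in AUL, 6 in T-MPAL, 4 in AML, 2 in B-ALL, 2 in the control and 0 in T-ALL. Of the 15, 8 were 1-base deletions. The sequences show how near both calls are, with the private allele first and the common one after it.
AUL private, 36 of 36 reads, chr7:81199023-81199024: cT
all 7 libraries, 35 of 35 reads in AUL, from chr7:81199024: tCccccc
AUL private in an intron of Eprs, 32 of 32 reads, chr1:185393506-185393507: cA
all 7 libraries, 30 of 30 reads in AUL, from chr1:185393507: aTttttt
control private, 27 of 27 reads, chr8:25101900-25101901: tA
all 7 libraries, 25 of 25 reads in the control, from chr8:25101901: aGggg
B-ALL private in an intron of Hspbp1, 31 of 31 reads, chr7:4663261-4663263: cTt
all 7 libraries, 31 of 31 reads in B-ALL, from chr7:4663263: tCcccc
Eprs charges transfer RNAs and Hspbp1 binds the chaperone Hsp70. In all 4 pairs the private deletion removes the base just before, or within 2 bases of, the run in which the common deletion lies, and the depths of both calls differ by at most 2 reads. M-MPAL had such a pair on chromosome 18 (position 10955929, 41 of 41 reads, beside 40 of 40 reads). Leaving out members within 10 bases of an INDEL listed in all 7 tables, an alternative added after seeing the data, gave ratios to the control of 3.33 (T-ALL), 2.71 (AUL), 1.14 (AML), 0.619 (B-ALL), 2.19 (M-MPAL fraction) and 1.48 (T-MPAL fraction).

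The longest changes of the other libraries were mostly supported by a minority of reads. The deletion of 17 bases in an intron of Klf13, a zinc finger transcription factor, had 10 of 28 reads in T-ALL. The 45-base deletion of AML had 6 of 19 reads, the 42-base deletion of T-MPAL 8 of 22 reads and the 17-base AUL deletion 5 of 13 reads. In the control the longest deletion removed 12 bases in an intron of Ralgds, an exchange factor for Ral GTPases (6 of 35 reads). M-MPAL lost 34 bases, 1 unit of a tandem array, at chromosome 4 position 149810573 on 22 of 22 reads. In B-ALL the longest deletion, of 13 bases on chromosome 4 at 147528104, had 16 of 95 reads and lay in a region of at least 4 copies. Of these 7 deletions, 2 removed a full tandem copy (AUL and M-MPAL).

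The longest insertions added 21 bases in T-ALL (13 of 49 reads), AUL (8 of 42 reads) and M-MPAL (20 of 73 reads). All 3 lay near the start of the assembled chromosome 4, at 3064212, 3081146 and 3083798, in a region of at least 4 copies. T-MPAL gained 16 bases in an intron of Garnl3 (17 of 23 reads) and the control 16 bases in an intron of Gpr139, a G protein-coupled receptor (7 of 13 reads). The longest of AML by the naming rule was 14 bases in an intron of Mroh2a (51 of 73 reads), and that of B-ALL 11 bases in the chromosome 1 region (65 of 100 reads).
These alleles show that 2 of them copy what follows.
T-MPAL, Garnl3 intron, chr2:33048104-33048119: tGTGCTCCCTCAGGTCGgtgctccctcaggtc
control, Gpr139 intron, chr7:119174072: gTTGTGTGTGTGTGTGT
M-MPAL, intergenic, chr4:3083798-3083818: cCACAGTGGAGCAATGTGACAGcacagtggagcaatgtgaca
AML, Mroh2a intron, chr1:88248668-88248670: gACTGCCTTCCCCTAac
In Garnl3, 15 of the 16 inserted bases recur directly after the insertion, and in the M-MPAL allele 20 of 21.
By number of alternative reads the rule also named a 3-base deletion in an intron of Vmp1, an autophagy protein, in T-ALL (46 of 80 reads) and a 2-base insertion on chromosome 17 at 13589900 in B-ALL (48 of 74 reads). In AML it named a 4-base insertion in a CA run on chromosome 6 at 93549099, where both alternative alleles together had 39 of 39 reads. In T-MPAL it named an Mroh2a insertion of 14 bases at 88248669 (42 of 62 reads) and one of 1 base at 88241892 (41 of 75 reads), both in the region of many copies on chromosome 1. In the control it named a 1-base insertion in a run of T on chromosome 1 at 85062207, where both alternative alleles together had 63 of 74 reads. An 11-base insertion on chromosome 10 at 57444251 in M-MPAL had 37 of 59 reads and lay in a region of at least 4 copies.

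Sharing by exactly 2 libraries was concentrated in 2 of the 21 pairs. M-MPAL and T-MPAL shared 37 members that no other table lists (26.1 to 51.0), and B-ALL and AML shared 30 (20.2 to 42.8). The next pair, B-ALL and AUL, shared 8 (3.45 to 15.8), and the lowest pairs shared 1. The MPAL fractions were sorted from one kind of leukaemia. The labels give no such link between B-ALL and AML.

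**Figure D4:**
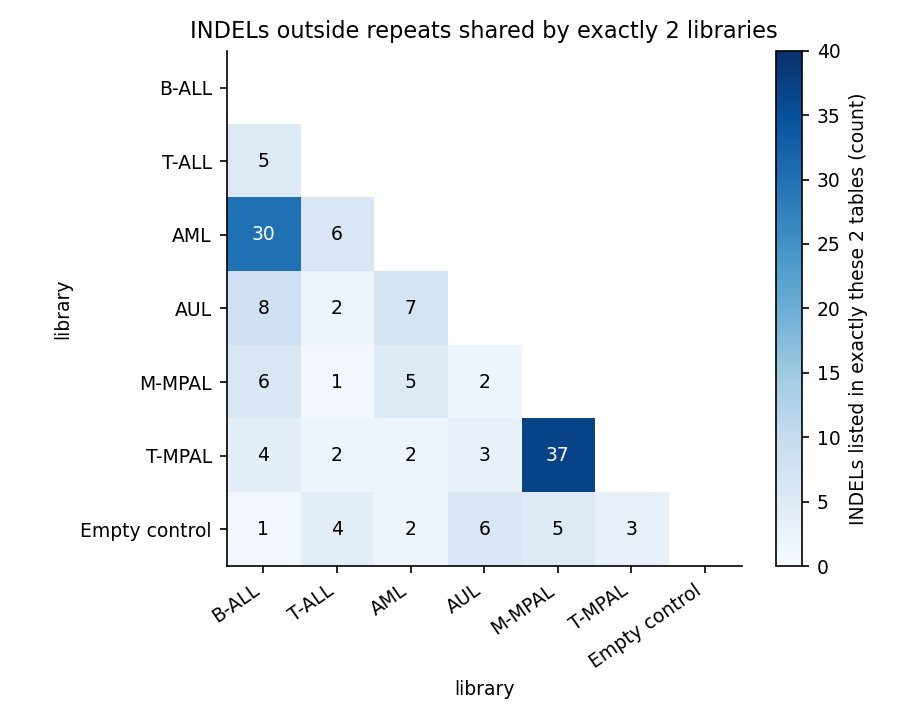
Number of INDELs outside repeats listed in exactly 2 tables, for each of the 21 pairs of libraries (rows and columns are libraries, shade and number give the count). M-MPAL with T-MPAL (37) and B-ALL with AML (30) stand apart from the other 19 pairs, which lie between 1 and 8.

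In the MPAL pair the median read share was 0.490 in the M-MPAL fraction and 0.528 in the T-MPAL fraction. Single members varied in both directions, and the widest gaps had the higher share in T-MPAL. By the naming rule, a 1-base deletion on chromosome 8 at 96068670 was on all 23 reads of M-MPAL and all 29 of T-MPAL. A 1-base insertion in an intron of Pcdh9, a protocadherin of cell adhesion, had 26 of 26 and 21 of 21 reads. The 7-base deletion in another intronic site of Pcdh9 had 22 of 22 and 17 of 17 reads. All 3 were thus read on every read of both fractions. The following members, picked after seeing their values, are examples of a share that differed between the fractions. A 3-base deletion in an intron of Pacs1, a sorting protein, on chromosome 19 had 16 of 30 reads in the M-MPAL fraction, against 35 of 36 in T-MPAL. An insertion of a CA unit on chromosome 19 at 11692404 had 16 of 32 and 24 of 26 reads, and a 4-base deletion on chromosome 15 at 62476643 had 9 of 28 and 24 of 31 reads. In the other direction the gaps were smaller. A 4-base deletion in an intron of Mctp1 on chromosome 13 had 11 of 20 and 7 of 21 reads. Differences of single members were not tested against counting error, which is large at such depths.

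In B-ALL and AML the medians were 0.404 and 0.430. The first member by the naming rule, the GTGG insertion at 88262231 in the chromosome 1 region, had 43 of 66 and 51 of 76 reads. The Fam21 deletion, in a gene of the WASH complex on endosomes, had 16 of 40 and 17 of 46 reads, and a 4-base insertion on chromosome 5 at 106168623 had 19 of 26 and 15 of 17 reads. In this pair 0 of 30 were called homozygous, against 5 of 37 in the MPAL pair, by the genotype in M-MPAL. T-MPAL was also called homozygous at the Pacs1 deletion, the CA insertion at 11692404 and a 2-base insertion in an intron of Icosl. At a 9-base insertion on chromosome 6 at 91308468 only M-MPAL was.

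The edges of the deletions of at least 3 bases outside runs were compared as a description. A partial copy, in which the bases after the deletion repeat the start of the deleted bases, was found in 9 of 11 deletions of the MPAL pair (81.8%, 48.2 to 97.7), with 1 to 4 repeated bases (median 2). The other 2 of the 11 were followed by a full copy. A partial copy was found in 25 of 41 private deletions (61.0%, 44.5 to 75.8), in 24 of 57 deletions of all 7 tables (42.1%, 29.1 to 55.9) and in 0 of 2 of the B-ALL and AML pair. The intervals of the MPAL pair and of the private members overlap. The repeated bases had a median of 2 in the private deletions and 2.5 in those of all 7 tables. A full copy followed 5 of the 41 private deletions, 20 of the 57 of all 7 tables and 2 of 2 of the B-ALL and AML pair. No base was repeated in 11 of the 41 and 13 of the 57. A lower share of partial copies is thus not a lower share of repeated edges. A single repeated base was enough for a partial copy, and the share that random sequence would give was not worked out. Inside runs, the repeat unit was a single base in 289 of 370 members of all 7 tables and of 2 bases in 86 of 131 private ones. In the MPAL pair the unit was of 4 bases in 7 of 15.

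Members missing from 1 library alone were mostly missing from the control. There were 88 members (70.6 to 108) listed in all 6 leukaemia libraries and not in the control, which was 4.79% (3.86 to 5.87) of the members listed in all 6. The same count was 23 for M-MPAL, 18 for T-MPAL, 12 for AUL, 12 for T-ALL, 7 for AML and 7 for B-ALL, or 0.399% to 1.30%. Of the 88, 67 were called homozygous in all 6, 62 were in dbSNP, 61 were 1-base changes, 48 were insertions and 12 lay in regions of at least 4 copies. They lay on 18 chromosomes, but some lay close together. Examples are chromosome 10 at 8005012, 8005075 and 8005095, and chromosome 3 at 124798803, 124798858 and 124798880. The interval of the 88 treats each as a separate event. Examples, picked after seeing their values, are a 1-base deletion on chromosome 15 at 16583824, with at least 23 reads in each leukaemia library, and others in introns of Tbc1d5, a regulator of endosome traffic (at least 21 reads), and, as an insertion, Zfp536, a zinc finger gene (at least 15 reads).

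**Figure D5:**
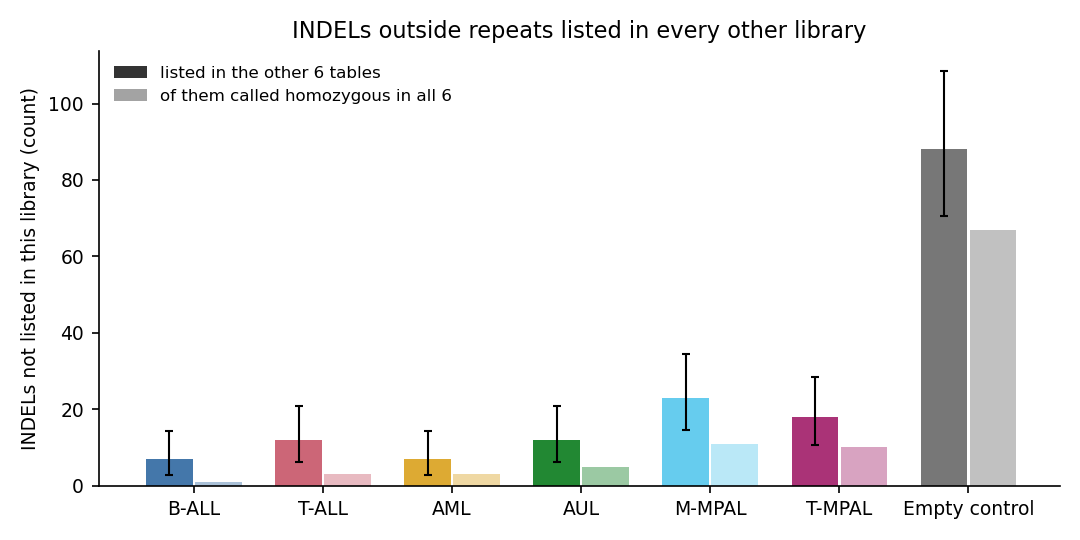
Number of INDELs outside repeats that 1 library does not list while the other 6 do (y axis, count), by the library that lacks them (x axis), with exact 95% Poisson intervals, and in pale colour those called homozygous in all 6. The control lacks 88, of which 67 are homozygous elsewhere, and the leukaemia libraries lack 7 to 23.

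The tables hold no reference calls, so an INDEL that is not listed may be absent or not read. The median depth of the 88 in the 6 leukaemia libraries was 21 reads, against 24.5 for the members of all 7 tables. For the members missing elsewhere it was 10.5 (M-MPAL), 13.5 (T-MPAL), 15.2 (AUL), 19.5 (B-ALL), 20 (AML) and 28.8 reads (T-ALL). These depths are from the libraries that list the members, not from the one that lacks them. The control listed 7.27% of the members of all 7 tables with under 10 reads, more than T-MPAL (5.72%), M-MPAL (4.52%), B-ALL (3.95%), AUL (2.86%), AML (2.35%) and T-ALL (1.72%). Of the 88, 30 had another control variant within 1000 bases, at a median depth of 13.5 reads, and 1 had another control INDEL within 10 bases. For members missing from a leukaemia library, its own variants within 1000 bases had higher median depths. They were 16 (B-ALL), 19 (AML), 20 (AUL), 30.5 (M-MPAL), 33.75 (T-MPAL) and 57 reads (T-ALL), from 5 (B-ALL) to 11 (M-MPAL) members each. The part of depth in the 88 was not tested.

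Private members outside repeats were compared with private INDELs in repeats or segmental duplications that met the same depth and quality limits, with each library as its own pair. Single-base changes made up 16.2% ± 10.2 (SD, n = 7 libraries) outside and 0.853% ± 0.391 inside, and the share was higher outside in 7 of 7 libraries. In the exact sign-flip permutation test over libraries (two-sided) this gave p = 0.0156, the smallest this design allows, and 0.0365 after Benjamini-Hochberg adjustment over 7 measures. Changes of 10 or more bases made up 11.8% ± 4.30 outside and 4.33% ± 0.737 inside, higher in 7 of 7 libraries (exact test, adjusted p = 0.0365). Over all members in place of private ones this direction turned, to a difference of -1.57 percentage points (exact test, adjusted p = 0.0187). Outside repeats, 85.3% (T-ALL) to 92.2% (control) of the members were then the same INDELs of all 7 tables. The 7 values are thus not independent, and no conclusion is drawn from this p-value. The private share of all members was lower outside in 7 of 7 libraries, at 2.44% ± 1.09 against 14.6% ± 2.56 (exact test, adjusted p = 0.0365). The share in dbSNP was lower outside in 6 of 7, at 3.25% ± 4.16 against 8.49% ± 0.627, and did not pass after adjustment (exact test, adjusted p = 0.0547). Insertions (52.7% ± 11.4 against 47.3% ± 7.96), the share in genes (41.4% ± 9.89 against 38.1% ± 2.49) and the median DV/DP (0.456 ± 0.0506 against 0.458 ± 0.0346) gave adjusted p of 0.481, 0.510 and 0.922 in the same exact test. The libraries that share members may not be independent units. With the M-MPAL and T-MPAL fractions averaged as 1 unit, the smallest p of the exact test is 0.0313 and the measures that passed had an adjusted p of 0.0547, above 0.05.

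Members in 2 gene lists were counted beside those in all protein-coding genes. Of 20661 protein-coding genes on these chromosomes, 740 (3.58%) had a member and 107 (0.518%) a private one. Of 34 listed genes of mismatch repair, replication and end joining, 3 had members, 7 in all, none private, and all 7 were 1-base changes listed in all 7 libraries. They were 5 deletions in Lig1, 1 deletion in Dntt, which adds bases to V(D)J ends, and 1 insertion in Prkdc, the kinase of end joining. Of 70 blood, leukaemia and Myc network genes, 2 had a member. The share of genes with a member was above the 3.58% of all genes in the first list and below it in the second. These shares rest on 3 and 2 genes and were not tested. Lef1, a transcription factor of Wnt signalling, had a 1-base deletion in all 7 libraries, and Ikzf3, a lymphoid transcription factor, had a private member in M-MPAL. The latter was a 2-base deletion in an intron at chromosome 11 position 98515162, in a run of 9 units, with 7 of 27 reads, and it is in dbSNP. Exonic changes are not members, so these counts say nothing of coding sequence.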

How the data were processed

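Whole-genome DNA of 7 libraries was analysed, 1 per group. INDELs and SNVs were called with samtools, copy number with FREEC and annotation added with ANNOVAR, per the file headers and names. The submitters' processing notes name BWA and the build mm10, with versions and filters not given in the sources used here. In the deposited tables, QUAL is a Phred-scaled score from 20 to 228, and DP and DV are read numbers per call. The AUL copy number table is cut off and was not used for regions of many copies. Members, lists and comparisons were chosen with earlier results of these data known.

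Calls were matched by position, reference and alternative allele. Named are, per library, the 2 private members with the most alternative reads and the longest private deletion and insertion, and, for the 2 leading pairs, the 3 members with the highest lower DV, without DP over 100, dbSNP, Olfr, Vmn, Gm or Rik genes. Private or pair members at splice sites or in list genes are named too, and members in untranslated regions and others said to be picked later were chosen after their values were seen. ncRNA exonic calls (6 distinct) count as not exonic. Gene lists were matched by symbol. Scripts were tested on simulated data and ran in Python 3.11.15 with pandas 2.3.3, numpy 2.4.6, matplotlib 3.10.9 and scipy 1.17.1.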

Additional observations from a re-analysis of the deposited data

How the results depend on the processing

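Of 130 recomputed values, 107 were counted as unchanged. Ratios had to stay within the counting error of the main value, and pair counts within a fixed fold change of it. Tests had to keep their direction and their side of the threshold. The ratio of private members to the control was above 1 with its interval above 1 in 14 of 14 alternatives for T-ALL (2.08 to 5) and for AUL (2.04 to 4), and in 13 of 15 for M-MPAL (1.29 to 3.19), where leaving out tandem runs gave 1.29. It was so in 3 of 15 for T-MPAL (1.17 to 2.83). Ratios and pair counts that moved beyond these limits were as follows. With QUAL at least 200 the ratio was 4.83 in T-ALL and 2.83 in T-MPAL, and the pairs had 24 (MPAL fractions) and 16 (B-ALL and AML) members. With DV at least 8 the T-ALL ratio was 5. With no INDEL of any allele within 10 bases in another library the B-ALL ratio was 0.167. With the partner library not asked the ratio was 1.74 in B-ALL, 2.07 in AML and 2.63 in T-MPAL. The MPAL pair had 23 members at DP of at least 20 and 22 without tandem runs. Without tandem runs the B-ALL and AML pair had 20, counted as unchanged but just below the interval of its main count (20.2 to 42.8). In each alternative for pairs the next pair had at most 8.

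For the difference outside minus inside repeats, taking all members in place of private ones turned the share of 10 or more bases to -1.57 percentage points, the median DV/DP to 0.448 and the share in dbSNP to 57.5 points. The share in genes then passed at 10.2 points, but the libraries share most members outside repeats and are not independent units in this setting. Leaving runs out of the outside set turned the median DV/DP to 0.0982 and made the dbSNP share pass at -7.35 points. With the M-MPAL and T-MPAL fractions averaged as 1 unit, 1-base changes (14.7 points), changes of 10 or more bases (7.13 points) and the private share (-11.9 points) no longer passed, and with B-ALL and AML averaged too they were 17, 7.17 and -12.2 points and could not pass with 5 units. The causes were not tested. Averaging libraries, leaving out regions of at least 4 copies and members beside common INDELs were alternatives added after seeing the data. Depth limits a statement that an INDEL is absent from a library.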
